A study of Mus musculus with 9 samples.

Results

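The metalloproteinase genes and their inhibitors were 50 protein-coding genes among the 55357 gene identifiers measured by RNA-seq in keratinocytes sorted from mouse back skin. They were selected by symbol alone: 22 matrix metalloproteinases (Mmp genes), 19 secreted ADAMTS proteases, 5 ADAMTS-like genes, whose proteins lack the protease domain, and the 4 tissue inhibitors of metalloproteinases (Timp1 to Timp4). All 9 libraries came from C57BL/6 mice aged 60 days that carried TNC-CREER, an inducible Cre driven from the Tenascin-C gene (Tnc), together with a tdTomato reporter, and that received tamoxifen at 100 µg per g body weight on postnatal days 51 and 52. Cells were released by 60 min of 0.25% trypsin at 37 °C, and every sorted cell was positive for EPCAM, an epithelial surface protein, and for integrin α6, a basal keratinocyte protein. Touchdome cells, from the epidermal patches that surround Merkel cells, were gated as SCA1+ TOMATO+. HF (hair follicle) cells were SCA1- TOMATO-, and IFE (interfollicular epidermis) cells were SCA1+ TOMATO-. Each group had 3 libraries, made from 50 ng of RNA by poly(A) selection and sequenced as pairs of 150 nt. Whether the 3 libraries of a group represent different mice is not stated in the labels. The p-values therefore measure only the spread between these libraries, which may be technical. The Touchdome gate depends on where and when the Tnc promoter drives Cre.

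Matrix metalloproteinases and ADAMTS proteases are zinc enzymes that cut collagens, proteoglycans and other proteins outside the cell or at its surface. Most are made as inactive precursors, and the TIMP proteins bind and block the active enzymes, TIMP3 with a broad reach that includes several ADAM and ADAMTS proteases. In skin these enzymes are known for their part in wound repair, in remodelling of the basement membrane and in hair follicle growth.

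Total expected counts lay between 10735431 and 15477297 per Touchdome library, between 9295059 and 21358479 per HF library and between 14647371 and 28249763 per IFE library. In these libraries a count of 0 allowed up to 0.114 to 0.316 CPM (counts scaled to library size; 3 counts per library, counting error only). Krt5, Krt14, Epcam and Itga6, the keratinocyte markers, summed to 25118 to 28879 TPM (transcript level scaled for length and library total) in Touchdome, 12153 to 13496 TPM in HF and 29578 to 33469 TPM in IFE. Ly6a, which encodes SCA1, was at 261 to 330 TPM in Touchdome, 1.16 to 4.36 TPM in HF and 263 to 379 TPM in IFE. Tnc itself was at 47.2 to 68.4 TPM in Touchdome, 10.2 to 15 TPM in HF and 0.23 to 1.55 TPM in IFE. Touchdome replicate 3 stood apart from its group in 4 of the 5 follicle bulge genes listed (Cd34, Lgr5, Lhx2 and Sox9), while Krt15, at 7118 TPM, lay between the 6676 and 7897 TPM of the other Touchdome libraries. Cd34 was at 77.4 TPM in replicate 3 and at most 17.4 TPM in the other Touchdome libraries, against 548 to 669 TPM in HF. Lhx2 was at 17.7, 23.4 and 66.8 TPM in Touchdome replicates 1, 2 and 3, against 439 to 500 TPM in HF. HF replicate 3 stood apart in the Langerhans cell gene Cd207, at 1.10 TPM, against 28.4 and 28.8 TPM in the other HF libraries. The macrophage gene Cd68 was not lower there, at 8.75 TPM against 8.54 and 8.55 TPM. For the members, called results that move without these libraries are given with and without them. For all other genes, Cd34 and Lhx2 included, values without these libraries are not given.

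The DNA just before the start site is shown for 7 members chosen by their levels. Mmp3, Mmp13, Mmp28 and Adamts14 were at or under 1.62 TPM in every HF library. Adamts9, Timp2 and Adamtsl4 were higher in HF than in IFE. Mmp13 was also at or under 1.11 TPM in every IFE library. Other called members are not shown, among them Mmp11, whose window holds 2 GC boxes, so the 7 do not stand for all called members. Each line gives 250 bases upstream of the RefSeq start site (build GRCm38.p6), 5′ to 3′ on the gene's strand, with capitals marking matches on either strand to TGANTCA (the AP-1 motif), TATAAA (the TATA box) or GGGCGG (the GC box). No letters of one motif lie within another of these motifs, but adjacent GC boxes can share bases.
Mmp3 (chr9:7445572-7445821, + strand): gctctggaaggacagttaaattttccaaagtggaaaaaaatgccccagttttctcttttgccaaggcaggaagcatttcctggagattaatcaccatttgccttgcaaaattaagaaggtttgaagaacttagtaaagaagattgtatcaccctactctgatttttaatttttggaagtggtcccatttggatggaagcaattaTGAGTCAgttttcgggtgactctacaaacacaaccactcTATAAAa
Mmp13 (chr9:7272264-7272513, + strand): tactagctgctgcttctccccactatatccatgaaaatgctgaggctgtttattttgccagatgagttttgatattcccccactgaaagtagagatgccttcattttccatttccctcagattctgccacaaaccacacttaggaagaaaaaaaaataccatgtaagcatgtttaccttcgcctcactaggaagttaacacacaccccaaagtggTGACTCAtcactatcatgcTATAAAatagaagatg
Mmp28 (chr11:83463041-83463290, − strand): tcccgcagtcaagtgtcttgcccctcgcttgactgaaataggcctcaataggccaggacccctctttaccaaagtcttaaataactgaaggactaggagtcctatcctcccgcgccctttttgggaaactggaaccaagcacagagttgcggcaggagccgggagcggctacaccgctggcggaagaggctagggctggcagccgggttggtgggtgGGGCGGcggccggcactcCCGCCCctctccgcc
Adamts14 (chr10:61273420-61273669, − strand): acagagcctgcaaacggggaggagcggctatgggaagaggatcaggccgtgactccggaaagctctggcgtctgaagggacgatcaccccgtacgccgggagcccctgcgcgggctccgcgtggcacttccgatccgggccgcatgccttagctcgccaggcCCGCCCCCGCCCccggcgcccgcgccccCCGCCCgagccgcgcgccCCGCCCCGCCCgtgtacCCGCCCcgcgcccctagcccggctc
Adamts9 (chr6:92943535-92943784, − strand): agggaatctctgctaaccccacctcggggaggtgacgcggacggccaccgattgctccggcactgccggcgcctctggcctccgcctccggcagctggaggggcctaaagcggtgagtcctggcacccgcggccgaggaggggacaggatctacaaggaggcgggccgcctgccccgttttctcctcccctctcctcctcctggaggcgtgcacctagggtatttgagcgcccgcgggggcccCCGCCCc
Timp2 (chr11:118355412-118355661, − strand): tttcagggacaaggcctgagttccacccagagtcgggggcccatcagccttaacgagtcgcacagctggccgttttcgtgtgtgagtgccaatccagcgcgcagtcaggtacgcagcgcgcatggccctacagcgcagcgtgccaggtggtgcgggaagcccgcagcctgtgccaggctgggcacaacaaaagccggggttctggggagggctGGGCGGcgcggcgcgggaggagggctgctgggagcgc
Adamtsl4 (chr3:95687918-95688167, − strand): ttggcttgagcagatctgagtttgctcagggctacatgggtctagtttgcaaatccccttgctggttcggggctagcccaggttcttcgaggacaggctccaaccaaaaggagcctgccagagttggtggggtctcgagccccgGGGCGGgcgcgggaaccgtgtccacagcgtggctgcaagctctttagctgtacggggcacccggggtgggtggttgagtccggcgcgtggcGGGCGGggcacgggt
Mmp3 and Mmp13 each hold 1 AP-1 match, starting 46 and 35 bases before the start, and a TATA box closer to it. Neither holds a GC box, and each has 1 CpG dinucleotide. Mmp28, Adamts14, Timp2, Adamtsl4 and Adamts9 hold between 1 and 6 GC boxes with 15 to 35 CpGs, and no AP-1 or TATA match. The median over all 32851 gene windows was 6 CpGs. AP-1 matches were found in 6.75% of all windows and in 7 of the 38 windows of 35 members with an entry, which belong to Mmp1b, Mmp3, Mmp7, Mmp10, Mmp12, Mmp13 and Mmp20. TATA boxes were in 12.4% of all windows and in 9 of 38 member windows. GC boxes were in 32.7% of all windows and in 20 of 38 member windows. A match is a stretch of letters and not a measured binding site.

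Expression of the members was uneven. Of the 50 genes, 14 averaged at least 10 TPM in some group, while 25 stayed under 1 TPM in every group. Mmp7, Mmp8, Mmp20 and Adamts16 were at 0 in all 9 libraries. A filter on low counts passed 30 members, made up of 9 Mmp, 15 Adamts, 4 Adamtsl and 2 Timp genes, and the highest single value among the 20 others was 1.90 TPM, for Mmp23. Since a gene could pass through 1 group alone, counts over the 30 are descriptions only. The plot of levels by gene and library shows the 21 members named by a rule on level and calls.

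**Figure D1:**
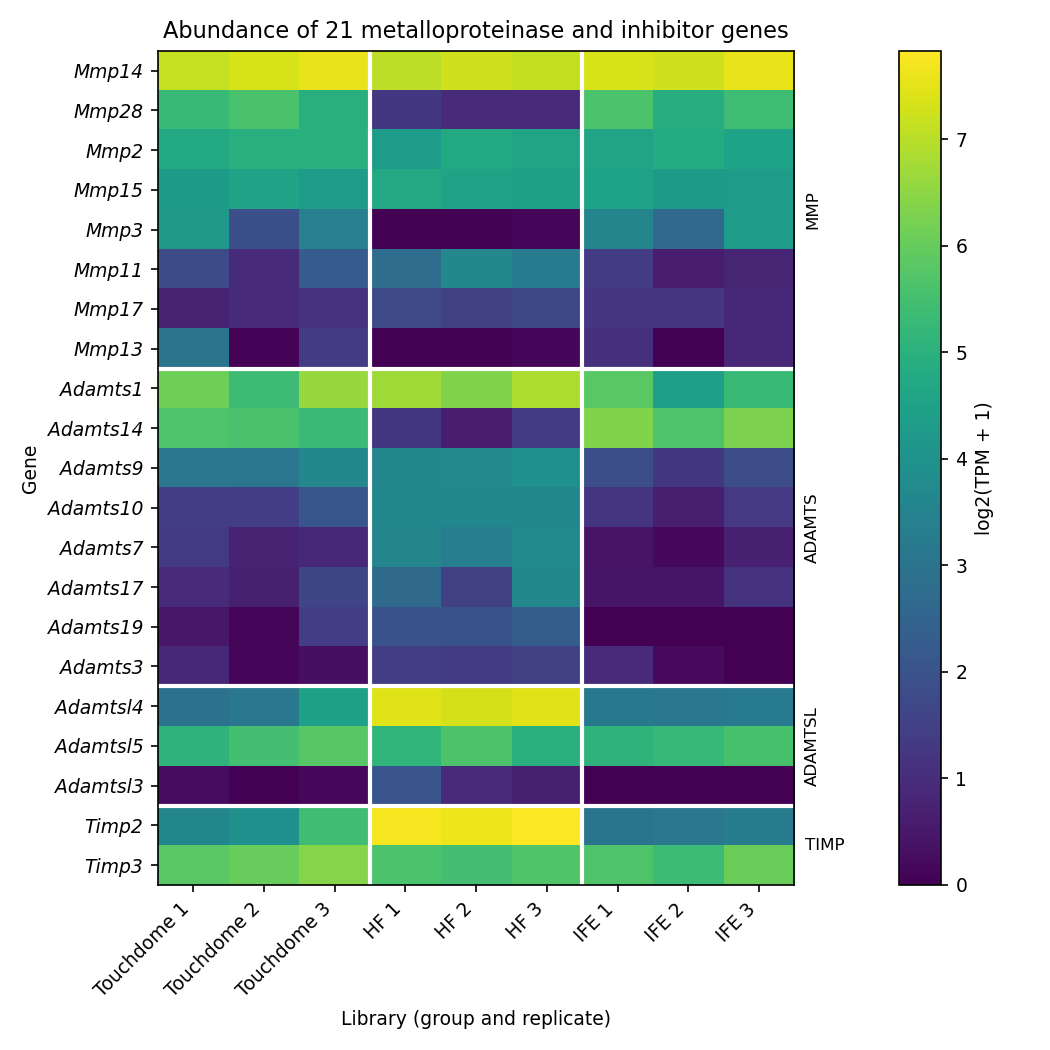
Each row is 1 of 21 named members and each column 1 library, coloured by log2(TPM + 1) from dark (0) to yellow (highest), with white lines between classes and between groups. Timp2 and Adamtsl4 are bright in all 3 HF columns, Mmp28, Adamts14 and Mmp3 are dark there, and Mmp14 is bright in all 9 columns.

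Touchdome and IFE cells differed in few members. By edgeR's quasi-likelihood test with Benjamini-Hochberg adjustment over all 15046 genes tested (calls at adjusted p under 0.05), 2 of 30 members were higher in Touchdome, Adamts9 and Adamts19, and none was lower; 1.30% of all genes were called, 1.22% higher and 0.0798% lower. At an unadjusted p under 0.05 edgeR had 8 members higher and 1 lower, where 6.96% and 3.71% of all genes were. DESeq2 called 4 higher and 0 lower, where 2.97% and 0.559% of all genes were called. Between Touchdome and HF, 6 members were higher in Touchdome and 8 lower, where 11.8% and 12.8% of all genes were called in those directions. Between HF and IFE, 14 members were higher in HF and 5 lower, where 17.1% and 16.0% of all genes were called. The median log2 fold change of the 30 members was 0.54 for Touchdome over IFE, −0.46 for Touchdome over HF and 2.11 for HF over IFE, against 0.0048, −0.0038 and 0.0042 over all genes tested. The 3 comparisons share libraries, so they are not independent of each other.

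**Figure D2:**
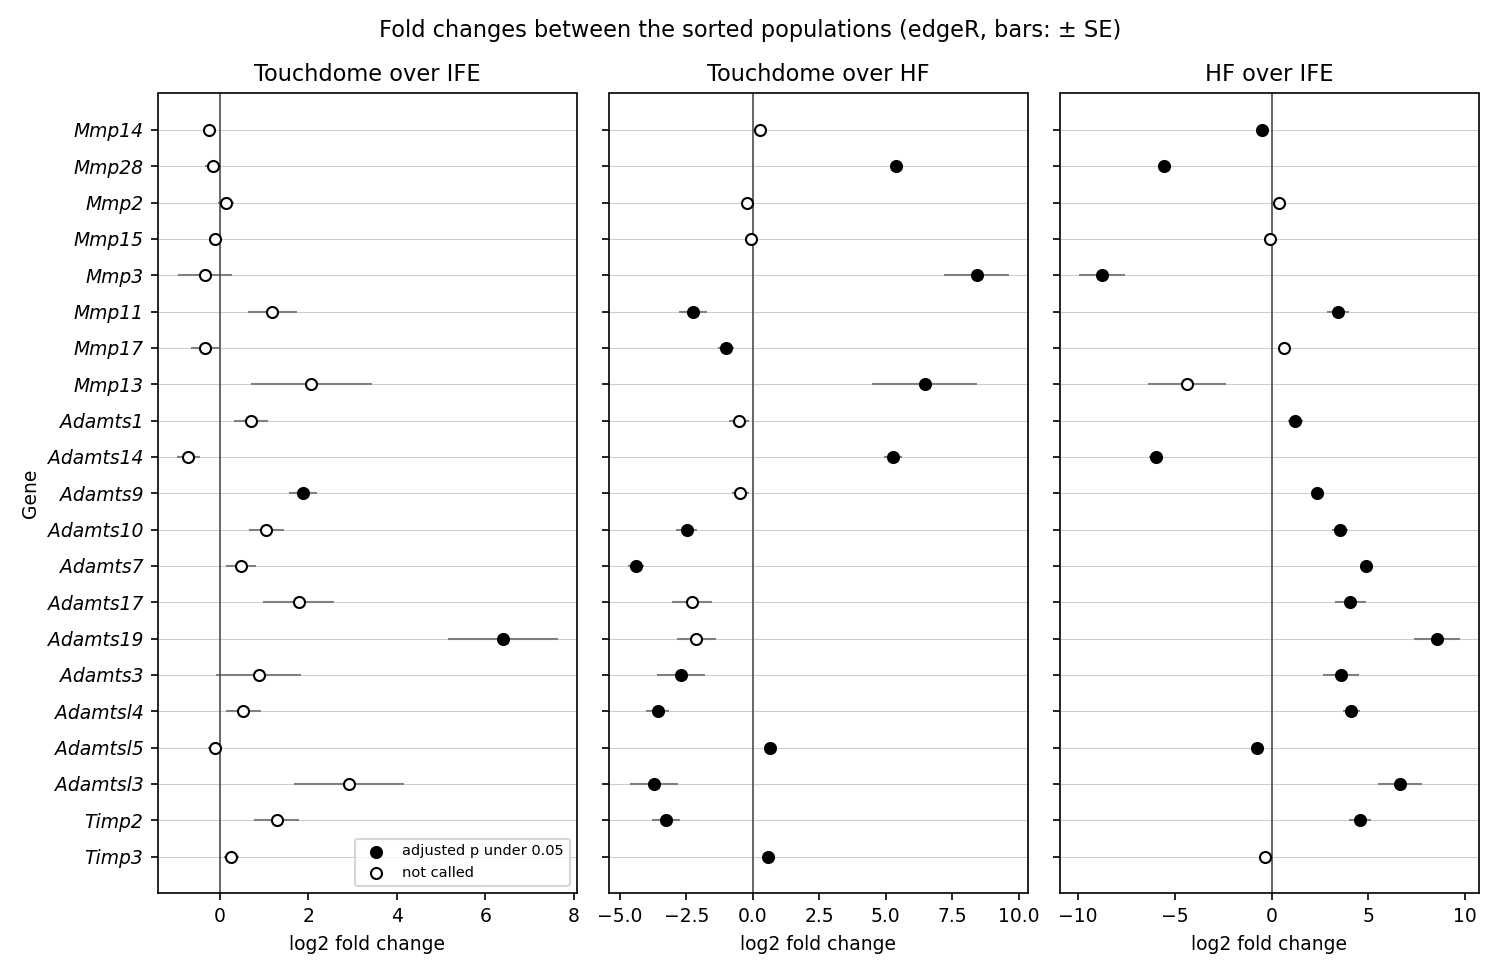
Points are log2 fold changes of the 21 named members (edgeR, bars ± SE) for Touchdome over IFE, Touchdome over HF and HF over IFE, filled where the adjusted p is under 0.05. Filled points are Adamts9 and Adamts19 in the first panel, and lie on both sides of 0 in the others.

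Among the inhibitors, Timp2 separated the follicle from both SCA1+ populations. Timp2, which besides inhibiting proteases takes part in the activation of pro-MMP2 by MMP14, had 11.0, 14.4 and 42.3 TPM in Touchdome, 212, 196 and 227 TPM in HF, and 7.24, 7.82 and 8.76 TPM in IFE. The HF libraries were all far above the rest, and the Touchdome values lay above the IFE values with replicate 3 the highest. The log2 fold change was 4.56 ± 0.56 (SE) for HF over IFE (edgeR adjusted p = 0.000585) and −3.28 ± 0.53 for Touchdome over HF (adjusted p = 0.00328). Touchdome over IFE was 1.28 ± 0.51 and did not pass (adjusted p = 0.424). Without Touchdome replicate 3, the library with the higher Cd34 and Lhx2, Touchdome over HF was −4.19 and Touchdome over IFE was 0.36 (adjusted p = 0.663), and the part of follicle cells in that library's Timp2 was not tested. In bulk RNA, more cells of a type and more RNA per cell cannot be told apart.

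Timp3, the matrix-bound inhibitor, was at 55.7, 63.7 and 83.5 TPM in Touchdome, 48.2, 44.0 and 50.8 TPM in HF, and 49.9, 40.1 and 66.5 TPM in IFE. Every Touchdome library was above every HF library, whereas Touchdome and IFE overlapped. Touchdome over HF was 0.59 ± 0.17 on the log2 scale (edgeR adjusted p = 0.0236). That call did not hold without Touchdome replicate 3 (0.41, adjusted p = 0.0995), HF replicate 1 (0.59, adjusted p = 0.0690) or HF replicate 2 (0.53, adjusted p = 0.0890), nor in the 3 limma fits on TPM (0.48 to 0.49, adjusted p 0.123 to 0.202). Timp3 lies within Syn3 on the opposite strand with overlapping exons, and the strand setting of the counting is not given, so reads of the pair cannot be told apart. Timp1 reached at most 0.82 TPM and Timp4 at most 0.11 TPM in any library, and neither was tested.

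The membrane-anchored enzymes made up most of the Mmp transcripts. Mmp14, the membrane protease that activates pro-MMP2 and cleaves collagen, was at 139.5, 163 and 189 TPM in Touchdome, 132, 152 and 137 TPM in HF, and 165, 154 and 190.3 TPM in IFE. It was the most abundant Mmp gene in every library, with 52.7% to 65.0% of summed Mmp TPM in Touchdome, 66.5% to 69.9% in HF and 59.9% to 65.1% in IFE. On the count scale it was lower in HF than in IFE, at 181 ± 10.6 and 258 ± 27.1 CPM (SD, n = 3 each), a log2 fold change of −0.51 ± 0.13 (edgeR adjusted p = 0.00905). limma on log2(TPM + 1) gave −0.27 (adjusted p = 0.169), so this call held on counts and not on TPM. Touchdome did not differ past the threshold from HF (0.26, adjusted p = 0.175) or IFE (−0.25, adjusted p = 0.562).

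Mmp15, another membrane-anchored enzyme, lay between 18.1 and 25.6 TPM in all 9 libraries and was not called in any comparison. Mmp17, a GPI-anchored member, was low, at 0.70, 0.97 and 1.18 TPM in Touchdome, 2.28, 1.82 and 2.26 TPM in HF, and 1.35, 1.35 and 0.87 TPM in IFE. All HF values exceeded all others. It was lower in Touchdome than in HF (log2 fold change −1.01 ± 0.31, edgeR adjusted p = 0.0327), a call lost without Touchdome replicate 1 (adjusted p = 0.140), Touchdome replicate 2 (0.0783) or HF replicate 1, 2 or 3 (0.117, 0.0557 and 0.0661), and in the 3 limma fits on TPM (adjusted p 0.0973 to 0.132).

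Mmp2, the gelatinase that MMP14 activates, was at 26.5, 29.5 and 30.6 TPM in Touchdome, 19.0, 26.2 and 22.9 TPM in HF, and 23.0, 27.2 and 22.1 TPM in IFE. In TPM every Touchdome library was above every HF library, while in CPM the means were 20.5 ± 3.08 in Touchdome, 24.0 ± 2.36 in HF and 18.7 ± 3.74 in IFE (SD, n = 3 each). The count-based log2 fold changes were −0.22 for Touchdome over HF and 0.36 for HF over IFE, against 0.34 and −0.09 by limma on log2(TPM + 1), and no fit on either scale called them. Mmp9, the other gelatinase, is described here although it lay outside the naming rule, because its replicates spread widely. It was at 10.1, 1.14 and 4.49 TPM in Touchdome, 11.0, 6.38 and 0.34 TPM in HF, and 1.28, 0.46 and 1.45 TPM in IFE. No comparison passed (adjusted p 0.256 to 0.740). Its lowest HF value was in replicate 3, where the Langerhans cell gene Cd207 and the macrophage gene Csf1r (0.51 TPM, against 17.4 and 19.6 TPM in the other HF libraries) were low too. Cd68, another macrophage gene, was not low in that library (8.75 TPM, against 8.54 and 8.55 TPM in the other HF libraries). The macrophage and Langerhans list of 6 genes summed to 12.2 to 16.1 TPM in Touchdome, 10.4 to 61.2 TPM in HF and 12.7 to 17.7 TPM in IFE, and its part in Mmp9 was not tested.

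The secreted Mmp28 and Mmp3 were present in every library of the SCA1+ populations and at or under 1.40 TPM in every HF library. Mmp13, given after them, was low in IFE as well, at 0 to 1.11 TPM. Mmp28 (epilysin), known from keratinocytes, had 38.9, 47.4 and 29.2 TPM in Touchdome, 1.40, 0.93 and 0.93 TPM in HF, and 47.7, 28.5 and 41.3 TPM in IFE. The Touchdome and IFE libraries overlapped and all stood far above HF. Touchdome over HF was 5.39 ± 0.24 on the log2 scale (edgeR adjusted p = 3.16e-08) and HF over IFE was −5.55 ± 0.24 (adjusted p = 1.46e-08), whereas Touchdome over IFE was −0.16 (adjusted p = 0.863). Exons of Mmp28 overlap 1700020L24Rik on the opposite strand, whose reads may be included.

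Mmp3 (stromelysin), which cuts many matrix proteins and activates other pro-MMPs, was at 17.8, 2.78 and 9.71 TPM in Touchdome, 0, 0 and 0.07 TPM in HF, and 10.7, 5.38 and 19.1 TPM in IFE. Touchdome and IFE overlapped, replicate 2 was the lowest in both, and HF was at or near 0. Summed counts were 420 in Touchdome and 1 in HF, a depth-scaled ratio of 504 (95% counting interval 89.9 to 19950), and 839 in IFE, for which IFE over HF was 656 (117 to 25940). edgeR gave adjusted p = 0.000818 for Touchdome against HF and 0.000408 for HF against IFE, with fitted log2 fold changes of 8.42 and −8.75 that depend on the prior count. Leaving out single libraries moved them between 7.70 and 10.34, and between −8.03 and −10.68, with both calls kept.

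Mmp13, the main interstitial collagenase of mice, varied widely among Touchdome replicates. It was at 7.11, 0.06 and 1.55 TPM in Touchdome, 0, 0 and 0.09 TPM in HF, and 1.11, 0 and 0.84 TPM in IFE. Touchdome replicate 2 lay within the HF range, so these groups overlapped. Counts summed to 201 in Touchdome and 2 in HF, a ratio of 121 (32.9 to 1002). The edgeR call for Touchdome against HF (fitted log2 fold change 6.46 ± 1.98, adjusted p = 0.0421) failed in 11 of 16 alternatives. These included the omission of Touchdome replicate 1 (4.58, adjusted p = 0.114), Touchdome replicate 3 (adjusted p = 0.0539) and each HF library (adjusted p 0.123 to 0.148), and IFE replicate 1 or 3 (0.0670 and 0.0714). HF over IFE was −4.39 (adjusted p = 0.131). With the replicate number as a block, a pairing that the labels do not state, it was −4.54 (adjusted p = 0.00935).

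Mmp11, a stromelysin-like enzyme typical of stroma, ran the other way, at 2.47, 0.96 and 3.85 TPM in Touchdome, 5.96, 11.4 and 8.56 TPM in HF, and 1.57, 0.56 and 0.75 TPM in IFE. HF was above both other groups in every library. The log2 fold change was 3.43 ± 0.56 for HF over IFE (edgeR adjusted p = 0.000404) and −2.25 ± 0.53 for Touchdome over HF (adjusted p = 0.00718), the second becoming −3.11 without Touchdome replicate 3. Mmp11 overlaps Chchd10 on the opposite strand.

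**Figure D3:**
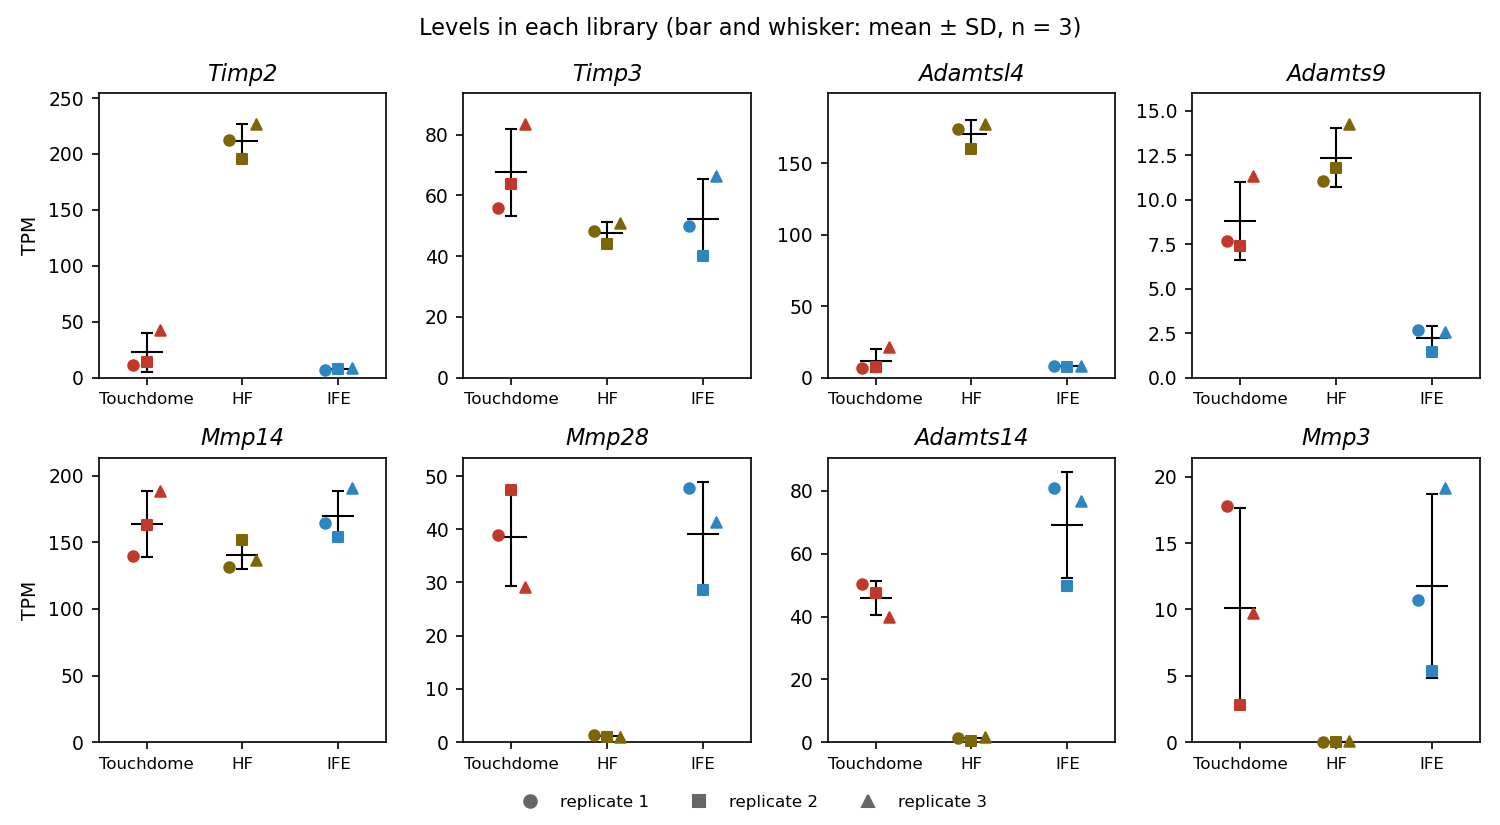
TPM of 8 members in each library (marker shape gives the replicate number), with the mean ± SD of 3 libraries per group. Timp2 and Adamtsl4 are high in HF, Mmp28, Adamts14 and Mmp3 are near 0 in HF, and Adamts9 is lowest in IFE.

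The procollagen N-proteinases, which trim the amino end of fibrillar procollagens, showed opposite patterns for Adamts14 and Adamts3. Adamts14 was at 50.5, 47.4 and 39.8 TPM in Touchdome, 1.43, 0.50 and 1.62 TPM in HF, and 80.8, 49.7 and 76.9 TPM in IFE. HF was near 0, and Touchdome overlapped IFE only at Touchdome replicate 1 and IFE replicate 2. Touchdome over HF was 5.27 ± 0.32 on the log2 scale (edgeR adjusted p = 2.78e-06), HF over IFE was −5.99 ± 0.33 (adjusted p = 9.21e-07), and Touchdome over IFE was −0.72 ± 0.26 without passing (adjusted p = 0.324). Adamts3 was at 0.88, 0.08 and 0.25 TPM in Touchdome, 1.68, 1.59 and 1.85 TPM in HF, and 0.95, 0.15 and 0 TPM in IFE. Every HF library was above all others. It was higher in HF than in IFE (3.58 ± 0.93, adjusted p = 0.00956; 2.92 to 4.85 without IFE replicate 3 or 1) and lower in Touchdome than in HF (−2.71 ± 0.89, adjusted p = 0.0420). The first call was lost in 2 limma fits on TPM (adjusted p = 0.0842 and 0.0566). The second call was lost in the 3 limma fits (adjusted p 0.0729 to 0.174), in the blocked fit (0.0547) and when leaving out any 1 of the Touchdome or HF libraries (adjusted p 0.0719 to 0.138). Adamts2 stayed at or below 1.02 TPM and was not called.

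Adamts9 and Adamts1, proteases of the aggrecan- and versican-cleaving group, were lowest in IFE. Adamts9 was at 7.66, 7.42 and 11.4 TPM in Touchdome, 11.1, 11.8 and 14.3 TPM in HF, and 2.66, 1.43 and 2.58 TPM in IFE. No Touchdome or HF value overlapped the IFE range, and only Touchdome replicate 3 reached into the HF range. The log2 fold change was 1.88 ± 0.32 for Touchdome over IFE (edgeR adjusted p = 0.0203, and 0.00160 with the replicate block), 2.34 ± 0.32 for HF over IFE (adjusted p = 0.000330), and −0.46 ± 0.30 for Touchdome over HF (adjusted p = 0.320). The Touchdome over IFE call held without Touchdome replicate 3 (1.58, adjusted p = 0.0298). It was lost without IFE replicate 1 (adjusted p = 0.0666) or IFE replicate 3 (0.0536), in a fit of these 2 groups alone (0.0686) and with no filter on low counts (0.0983). Adamts9 shares exon sequence on the opposite strand with A730049H05Rik and Gm15737.

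Adamts1 was at 68.2, 40.7 and 98.1 TPM in Touchdome, 104, 80.5 and 115 TPM in HF, and 55.4, 20.6 and 37.7 TPM in IFE. HF and IFE did not overlap, while Touchdome spanned both. HF over IFE was 1.21 ± 0.39 (edgeR adjusted p = 0.0449), lost without Touchdome replicate 1 or HF replicate 2 (adjusted p = 0.0618 each), IFE replicate 2 (0.132), IFE replicate 3 (0.118), HF replicate 1 (0.0991) or HF replicate 3 (0.126), and with no filter on low counts (0.128). Touchdome over IFE was 0.69 ± 0.38 (adjusted p = 0.627). Adamts4 and Adamts5, the aggrecanases, and Adamts18 are named after their values were seen, since all 3 were under 1 TPM in every group mean. They were called higher in HF than in IFE, at log2 fold changes of 3.0 (adjusted p = 0.0306), 2.53 (adjusted p = 0.00872) and 3.04 (adjusted p = 0.0218). The Adamts4 call was lost in 9 of 14 alternatives, among them leaving out HF replicate 1 (1.88, adjusted p = 0.238), and that of Adamts18 without IFE replicate 3 (adjusted p = 0.0883) or HF replicate 3 (0.0680). By limma on TPM with no filter neither Adamts5 (adjusted p = 0.185) nor Adamts18 (0.0694) passed.

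Adamts19 was the other member called between Touchdome and IFE. It had 0.42, 0.07 and 1.70 TPM in Touchdome, 2.89, 2.96 and 4.0 TPM in HF, and 0, 0 and 0.01 TPM in IFE. IFE was at or near 0, HF was above every Touchdome library, and most of the Touchdome signal was in replicate 3. Counts summed to 78 in Touchdome, 413 in HF and 1 in IFE, ratios over IFE of 120 (95% counting interval 20.9 to 4786) for Touchdome and 528 (94.3 to 20910) for HF. edgeR's adjusted p was 0.0320 for Touchdome over IFE, lost without any 1 of the IFE (0.163, 0.128 and 0.197) or HF libraries (0.0599, 0.0635 and 0.0511) and kept without Touchdome replicate 3. The fitted log2 fold change of 6.40 became 5.01 without Touchdome replicate 3 and 7.92 without IFE replicate 3. In the 3 limma fits on TPM it was 0.67 to 2.39 and did not pass (adjusted p 0.411 to 0.725). HF over IFE passed at adjusted p = 0.000256, and Touchdome over HF did not pass (−2.13, adjusted p = 0.0566). It did pass when Touchdome replicate 3 was left out (−3.53, adjusted p = 0.00172). It also passed with the replicate number as a block, a pairing that the labels do not state (−2.66, adjusted p = 0.00874).

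Markers of other cells also differed between Touchdome and IFE and are given beside these calls. The 6-gene fibroblast list summed to 32.4 to 42.5 TPM in Touchdome, 20.4 to 31.5 TPM in HF and 0.21 to 1.61 TPM in IFE. Dcn was its highest gene in Touchdome (17.7 to 26.8 TPM) and Col1a2 in HF (17.97 to 25.95 TPM). Lum was at 0 in every library except IFE replicate 3 at 0.10 TPM. 2 of the 5 fibroblast markers tested were called higher in Touchdome than in IFE, where 1.22% of all genes were. With the replicate block 3 were called higher, and calls over all genes in either direction numbered 349 in place of 196. Of the 5 follicle bulge genes, 2 were called higher in Touchdome than in IFE, and 3 with the replicate block. These 2 were Cd34 (log2 fold change 4.60, edgeR adjusted p = 0.0356) and Lhx2 (2.88, adjusted p = 0.0213). Among the Touchdome libraries both were highest in replicate 3, and their values without that library are not given. In HF, 4 of the 5 were called higher than in IFE, where 17.1% of all genes were. Krt8, a Merkel cell keratin, was at 6.55, 0.76 and 0.94 TPM in Touchdome, 1.95, 1.66 and 2.47 TPM in HF, and 0.09, 0 and 0.06 TPM in IFE, and was called higher in Touchdome than in IFE (5.37, adjusted p = 0.0225). The 5-gene Merkel list summed to 1.38 to 9.50 TPM in Touchdome, 1.95 to 2.83 TPM in HF and 0.11 to 0.34 TPM in IFE, with Atoh1 at 0 in all libraries. The endothelial list summed to 1.23 to 2.03 TPM in Touchdome, 0 to 0.81 TPM in HF and 0.34 to 0.41 TPM in IFE. Melanocyte sums were 2.86 to 18.9, 5.47 to 21.2 and 1.87 to 2.48 TPM, and neutrophil sums 0 to 9.88, 0 to 2.05 and 0 TPM. No gene of these lists was called between Touchdome and IFE, and no neutrophil gene was tested. Schwann cell and smooth muscle sums overlapped between Touchdome and IFE. The part of all these cells in Adamts9 and Adamts19 was not tested.

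Adamts7, Adamts10 and Adamts17 were called higher in HF than in IFE, and the first 2 lower in Touchdome than in HF. Adamts7, known to cleave COMP, was at 1.49, 0.68 and 0.82 TPM in Touchdome, 10.9, 9.29 and 12.1 TPM in HF, and 0.34, 0.13 and 0.63 TPM in IFE. No HF library came near the others. HF over IFE was 4.86 ± 0.31 on the log2 scale (edgeR adjusted p = 2.58e-07) and Touchdome over HF was −4.39 ± 0.31 (adjusted p = 9.30e-07). Exons of Adamts7 overlap Tbc1d2b on the opposite strand. Adamts10, a fibrillin-associated protease, was at 1.67, 1.69 and 3.28 TPM in Touchdome, 11.6, 11.6 and 11.1 TPM in HF, and 1.27, 0.59 and 1.46 TPM in IFE. The HF libraries were tightly grouped and the Touchdome libraries all lay above the IFE ones. HF over IFE was 3.53 ± 0.40 (adjusted p = 2.37e-05), Touchdome over HF was −2.49 ± 0.38 (adjusted p = 0.000420; −3.07 without Touchdome replicate 3), and Touchdome over IFE was 1.04 (adjusted p = 0.342).

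Adamts17, another fibrillin-related protease, was at 0.91, 0.60 and 2.09 TPM in Touchdome, 5.56, 1.82 and 11.5 TPM in HF, and 0.37, 0.35 and 1.23 TPM in IFE. HF replicate 2 lay below Touchdome replicate 3, and HF did not overlap IFE. HF over IFE was 4.07 ± 0.82 (edgeR adjusted p = 0.00406; 3.41 without HF replicate 3). Touchdome over HF was −2.29 ± 0.75 and did not pass (adjusted p = 0.0520). It passed with the replicate number as a block, a pairing that the labels do not state (−2.46, adjusted p = 0.000292). It also passed when Touchdome replicate 3 was left out (−3.29, adjusted p = 0.00854).

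Of the ADAMTS-like genes, Adamtsl4 was far higher in HF than in both SCA1+ populations. Adamtsl4, whose product binds fibrillin microfibrils, was at 6.78, 7.76 and 21.3 TPM in Touchdome, 174, 159.6 and 177 TPM in HF, and 7.96, 7.73 and 8.27 TPM in IFE. HF stood apart, and Touchdome replicate 3 alone lay above the IFE range. HF over IFE was 4.11 ± 0.43 on the log2 scale (edgeR adjusted p = 0.000160) and Touchdome over HF was −3.58 ± 0.42 (adjusted p = 0.000467), or −4.30 without Touchdome replicate 3. Touchdome over IFE was 0.53 (adjusted p = 0.763), and −0.19 without that library.

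Adamtsl3 was at 0.20, 0 and 0.13 TPM in Touchdome, 3.21, 0.92 and 0.61 TPM in HF, and 0, 0.03 and 0 TPM in IFE. All HF libraries were above the rest. Summed counts were 218 in HF and 2 in IFE, a ratio of 139 (38.1 to 1158), with edgeR adjusted p = 0.000631; the fitted log2 fold change of 6.63 became 9.14 without IFE replicate 2 and 5.92 without IFE replicate 3. Touchdome over HF was −3.72 ± 0.92 (adjusted p = 0.00984), lost without HF replicate 1 (adjusted p = 0.0671) and by limma with no filter (0.0728).

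Adamtsl5 depended on the scale. It had 33.0, 43.9 and 54.8 TPM in Touchdome, 34.2, 49.3 and 30.5 TPM in HF, and 33.4, 36.8 and 45.9 TPM in IFE. On this scale all groups overlapped, and limma gave 0.20 for Touchdome over HF (adjusted p = 0.599) and −0.04 for HF over IFE (adjusted p = 0.910). In CPM it averaged 70.2 ± 7.11 in Touchdome, 44.7 ± 6.66 in HF and 76.5 ± 8.66 in IFE (SD, n = 3 each). edgeR called it higher in Touchdome than in HF (0.65 ± 0.14, adjusted p = 0.00450) and lower in HF than in IFE (−0.77 ± 0.14, adjusted p = 0.000943).

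Summed by class, the inhibitors and the ADAMTS-like genes had much higher sums in HF, mostly through Timp2 and Adamtsl4 respectively. Mmp transcripts summed to 265, 269 and 291 TPM in Touchdome, 198, 224 and 196 TPM in HF, and 275, 236 and 297 TPM in IFE. Timp transcripts summed to 67.1, 78.2 and 126 TPM in Touchdome, 261, 239.7 and 278 TPM in HF, and 58.0, 47.9 and 75.7 TPM in IFE. Every HF library was lowest for the first sum and highest for the second. The ratio of summed Timp TPM to summed Mmp TPM averaged 0.326 ± 0.0952 in Touchdome, 1.27 ± 0.181 in HF and 0.223 ± 0.0279 in IFE (SD, n = 3 each). HF overlapped neither other group, while Touchdome and IFE overlapped, with Touchdome replicate 1 at 0.254 and IFE replicate 3 at 0.255. Most of the difference in this ratio lay in Timp2, since without that gene the ratio was 0.246 in Touchdome, 0.234 in HF and 0.193 in IFE. Timp2 was 16.4% to 33.5% of Timp TPM in Touchdome, 81.5% to 81.7% in HF and 11.6% to 16.3% in IFE. Adamtsl transcripts summed to 41.8 to 78.7 TPM in Touchdome, 210.4 to 215 TPM in HF and 44.5 to 55.6 TPM in IFE, whereas Adamts sums overlapped among all 3 groups (102.5 to 161 TPM in Touchdome, 124 to 175 TPM in HF and 74.0 to 144 TPM in IFE). These are RNA sums, not protein activities, and they were not tested.

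**Figure D4:**
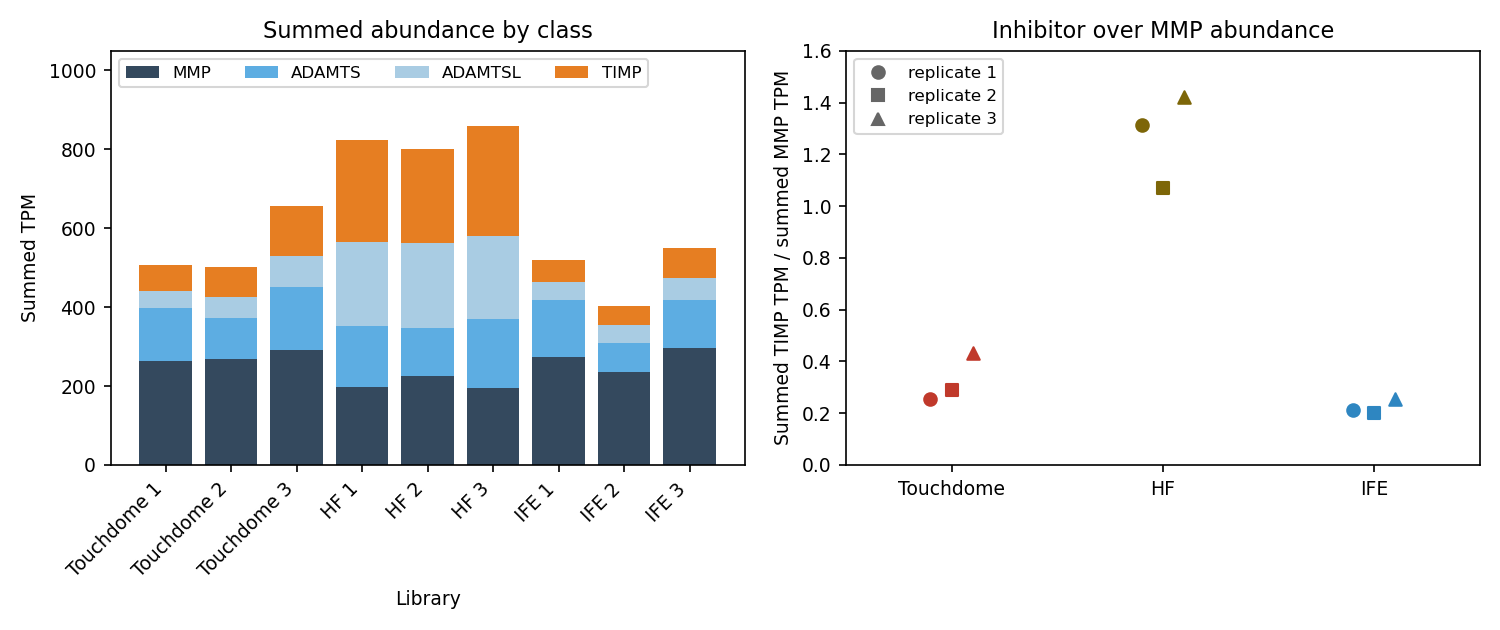
Left, stacked bars of summed TPM per library for the 4 classes; right, summed Timp TPM divided by summed Mmp TPM for each library (marker shape gives the replicate number). The HF ratios lie between 1.07 and 1.42, above all Touchdome values (0.254 to 0.434) and IFE values (0.203 to 0.255).

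The proteins that activate or regulate these proteases were read from a list of 17 genes, 13 of them tested. None was called by edgeR between Touchdome and IFE, where 1 was higher and 1 lower at an unadjusted p under 0.05 (6.96% and 3.71% of all genes). Touchdome exceeded HF in 3 and fell below it in 2, where 11.8% and 12.8% of all genes were called. In HF, 4 were higher and 3 lower than in IFE, where 17.1% and 16.0% of all genes were called. The 13 tested list genes had median log2 fold changes of 0.11, −0.11 and 0.14 in these comparisons. Plau, the urokinase that generates plasmin, was at 36.6, 31.1 and 34.8 TPM in Touchdome, 9.44, 11.5 and 8.41 TPM in HF, and 31.6, 31.5 and 30.8 TPM in IFE, giving log2 fold changes of 1.89 for Touchdome over HF (edgeR adjusted p = 1.84e-06) and −1.91 for HF over IFE (adjusted p = 9.69e-07). Serpinb2, a urokinase inhibitor, was at 504, 350.4 and 260.1 TPM in Touchdome, 22.0, 17.3 and 12.1 TPM in HF, and 1016, 489.8 and 607 TPM in IFE (4.51 for Touchdome over HF, adjusted p = 2.49e-05; −5.56 for HF over IFE, adjusted p = 5.70e-06). This activator and this inhibitor were both lower in HF, and with the replicate block Serpinb2 was also lower in Touchdome than in IFE (−1.07, adjusted p = 0.00209; −1.05 and 0.211 without the block). Pcsk6, a proprotein convertase, was higher in HF (−1.08 for Touchdome over HF, adjusted p = 0.00261; 1.38 for HF over IFE, adjusted p = 0.000311).

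Among 13 ADAM and tolloid proteases, 8 were tested. Tll1, a tolloid that processes procollagens, was the 1 gene of this list called between Touchdome and IFE, at 1.18, 1.19 and 1.37 TPM in Touchdome, 3.31, 3.45 and 3.76 TPM in HF, and 0.14, 0.08 and 0.58 TPM in IFE. The groups did not overlap, with Touchdome between the others: its log2 fold change was 2.84 over IFE (edgeR adjusted p = 0.00243) and −1.33 over HF (adjusted p = 0.00920), and HF over IFE was 4.17 (adjusted p = 4.09e-06). Of all genes, 1.22% were called higher in Touchdome than in IFE. Against HF, 3 list genes were higher in Touchdome and 2 lower, where 11.8% and 12.8% of all genes were called. For HF over IFE 1 was higher and 3 lower, where 17.1% and 16.0% of all genes were called. Adam8, a leukocyte and epithelial sheddase, was 3.41 for Touchdome over HF (adjusted p = 0.00359) and −3.95 for HF over IFE (adjusted p = 0.00135). Bmp1, which removes the carboxyl end of procollagens, was 0.52 (adjusted p = 0.00333) and −0.50 (adjusted p = 0.00317) in the same comparisons.

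Of 21 matrix substrates, 17 were tested. Touchdome was higher than IFE in 2, Tnc, whose promoter drives the Cre used in the sort, and Col1a2, which is also on the fibroblast list; with the replicate block, Col3a1 (5.25, adjusted p = 0.00448) and Col4a1 (0.70, adjusted p = 0.0182) were called too, 4 in all. Without the block, 1.22% of all genes were called higher in Touchdome than in IFE. Calls over all genes in either direction numbered 349 with the block in place of 196. At an unadjusted edgeR p under 0.05, 9 were higher in Touchdome than in IFE and 1 lower, where 6.96% and 3.71% of all genes were. Touchdome was higher than HF in 1 and lower in 3, where 11.8% and 12.8% of all genes were called. By edgeR HF was higher than IFE in 8 and lower in none, where 17.1% and 16.0% of all genes were called. At an unadjusted p under 0.05, 3 were lower, as were 20.9% of all genes. Col4a2, a basement membrane collagen chain, was at 11.2, 20.7 and 22.4 TPM in Touchdome, 42.3, 46.5 and 49.1 TPM in HF, and 10.1, 11.5 and 14.9 TPM in IFE. HF was above every other library, at log2 fold changes of −1.26 for Touchdome over HF (edgeR adjusted p = 0.00182) and 1.68 for HF over IFE (adjusted p = 0.000200). Col1a2, a fibrillar collagen chain, was at 5.38, 5.93 and 7.68 TPM in Touchdome, 23.7, 17.97 and 25.95 TPM in HF, and 0.06, 0 and 0.19 TPM in IFE, with Touchdome over IFE at 5.66 (adjusted p = 0.000182).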

How the data were processed

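RNA-seq libraries of sorted Touchdome, HF and IFE keratinocytes were grouped by their titles, 3 per group. For each library the deposited table holds an expected count (an estimated read count per gene) and a TPM value that the authors computed, per the file headers. Tools named in the submitters' processing notes were RSEM 1.3.3, STAR 2.7.9a and DESeq2 1.38.2, with build mm39; what each did, which annotation was used and whether counting used strand is not given in the sources used here. RSEM divides reads among similar sequences, so levels of near-identical or overlapping genes are uncertain. Symbols, biotypes and overlapping exons came from GENCODE M21, an annotation of another build, so gene coordinates are not given; 52081 of 55357 identifiers matched, and 1 name-matching identifier was not protein-coding. Upstream sequences came from RefSeq (GRCm38.p6).

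Expected counts were rounded and tested with edgeR 4.0.16 in R 4.3.3 (filterByExpr with a minimum count of 10 and minimum total of 15, TMM, robust quasi-likelihood, all 3 groups in 1 fit, Benjamini-Hochberg adjustment over 15046 genes, calls at 0.05). The SE is the absolute log2 fold change divided by the square root of F. The scripts were tested on simulated data. Named members were those called in any comparison with a group mean of at least 1 TPM, plus the 10 highest by mean TPM; up to 3 called genes with the smallest p were named per pathway list. Members, lists and tests were chosen with earlier results of these data known. Same-numbered Touchdome and IFE libraries deviated together weakly (r = 0.146, 0.173 and 0.203 across genes), and same-numbered pairs with HF had r from −0.0257 to 0.0701. With 3 libraries per group these values cannot establish a pairing, and the labels state none. The main fit therefore left the replicate number out, and results with the replicate block are alternatives only. Alternatives were RLE size factors, no count filter, DESeq2 1.42.0, a fit of 2 groups, a replicate block, limma 3.58.1 on log2(TPM + 1) or log2(TPM + 0.1) with genes at 1 TPM in at least 3 libraries, the same with no filter, and each library left out in turn. Ratios of summed counts have 95% intervals for counting error only. Total expected counts per library were 9295059 to 28249763.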

Additional observations from a re-analysis of the deposited data

How the results depend on the processing

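Across the 17 alternatives no member that was called changed direction. Calls kept in every alternative that could be fitted numbered 0 of 2 for Touchdome over IFE, 8 of 14 for Touchdome over HF and 12 of 19 for HF over IFE. Members higher in Touchdome than in IFE numbered 2, but 1 with no count filter, 4 with DESeq2, 0 in a fit of the 2 groups, 1 in each limma fit, and 0 to 2 with single libraries left out (0 without IFE replicate 1 or 3, 1 without IFE replicate 2 or any HF library). Over all genes that comparison gave 196 calls, against 310 with no count filter, 530 with DESeq2, 105 with the 2 groups alone, 349 with the replicate block, 71, 121 and 50 by limma on log2(TPM + 1), on log2(TPM + 0.1) and with no filter, and 112 to 232 with single libraries left out (112 without IFE replicate 1, 128 without IFE replicate 3). For Touchdome over HF, limma called 3 members higher in each of its fits in place of 6, and 5 lower on log2(TPM + 0.1) in place of 8; the lower count ranged from 5 (without HF replicate 1) to 10 with single libraries left out. For HF over IFE, limma on log2(TPM + 0.1) called 9 members higher in place of 14, and each limma fit 3 lower in place of 5. Adamts4, Adamts5, Adamts18 and Adamtsl3 reached 1 TPM in fewer than 3 libraries, so the filtered limma fits left them out and could not call them. Calls fell over all genes too. Touchdome over HF had 3703, against 2976, 2721 and 2595 by limma on log2(TPM + 1), on log2(TPM + 0.1) and with no filter. Without HF replicate 1 it had 2900. HF over IFE had 4972 calls over all genes, against 3961, 3888 and 3596 in the same limma fits. The cause of the other changes was not tested.

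The replicate block, for which the labels state no pairing, left the 2 member calls between Touchdome and IFE in place. DESeq2 also called Adamts4 and Adamts5 higher in Touchdome than in IFE (adjusted p = 0.0163 and 0.0213). Among matrix substrates the block gave 3 higher in Touchdome than in HF in place of 1, and 2 lower in HF than in IFE in place of 0. Over all genes in either direction, the block gave 4029 calls in place of 3703 for Touchdome over HF. For HF over IFE it gave 5258 in place of 4972.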
